A study of Mus musculus with 12 samples.

Results

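The effect of an overnight fast on the liver of mice with floxed, undeleted Foxo3 was read from 6 of the 12 RNA-seq libraries of the series, which were chosen by their labels and not by any measured value. The fasted group held 3 control mice (Foxo3 floxed, Cre-negative) labelled as fasted overnight, and the fed group held 3 control mice of the same genotype labelled as fed. All were males of 16 to 18 months, so both groups are of aged animals. The label for diet reads ad libitum in both groups, and the length of the fast in hours is not given there. The remaining 6 libraries came from fasted and fed males of the same age that were Foxo3 flox/flox and carried Alb-cre, in which the albumin promoter drives Cre and deletes Foxo3 in hepatocytes; these are called knockout mice here. They entered the fit to estimate the spread between replicates and served as the comparison for genotype. Each library is a biological replicate of frozen whole liver, made from poly(A) RNA with a strand-specific kit. The series asks what the transcription factor FoxO3 does for liver metabolism in aged mice, and the control livers give the response to fasting with Foxo3 in place.

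In the fed liver, insulin drives glucose into glycogen and fatty acids, and the transcription factors SREBP-1c and ChREBP switch on genes of fatty acid synthesis. In a fast, insulin falls while glucagon, glucocorticoids and fatty acids from adipose tissue rise. The liver then burns fatty acids in mitochondria and peroxisomes, exports ketone bodies and makes glucose from lactate, glycerol and amino acids. The nuclear receptor PPAR alpha switches on many genes of fatty acid oxidation, and FoxO factors, which insulin keeps out of the nucleus, switch on genes of glucose output.

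Control libraries held 19164610 to 22414976 counts, and 15862 of 55487 annotated genes had enough counts for testing. A count of 3 in 1 library, taken as the limit of detection, corresponds to 0.126 to 0.17 CPM (counts per 1000000 counts, scaled by TMM). The 9 hepatocyte markers were all tested, and together held 83284 to 125671 TPM (transcript abundance scaled by gene length and library) in fasted livers and 98618 to 133463 TPM in fed livers. Fed control replicate 3 stood apart on the second principal component (17% of the variance), at 52.2, against -27.5 to 20.3 for the other 11 libraries. It was also the highest library on the first component (25.3% of the variance), at 45, against -40.75 to 27.4 for the other 11. The B and plasma cell markers summed to 4000 TPM in fasted control replicate 3, against 194 to 618 TPM in the other 5 control libraries. Results that change when 1 library is left out are given with that library named.

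Across all tested genes, 657 differed between fasted and fed control livers at an adjusted p of 0.05, which is 4.14% of the genes tested. Of these, 325 were higher in fasted livers (2.05% of tested genes) and 332 were lower (2.09%), with a median log2 fold change of 0.73 and -0.86. The shares of 2.05% and 2.09% are the background for the count of every list below. The 3 fasted libraries lay wholly above or below the 3 fed libraries for every one of the 657 genes, and for 22.4% of all tested genes. The median log2 fold change of all tested genes was -0.0035, which TMM scaling holds near 0, so these data cannot show a shift of all genes together. The total was 541, 272 or 312 after leaving out fasted control replicate 1, 2 or 3, and 433, 341 or 538 after leaving out fed control replicate 1, 2 or 3. Of the 251 genes that the naming rule allowed, 114 passed the threshold and 56 of these passed it whichever control library was left out. Unless a library is named, the genes below are given with all 6 control libraries. In bulk tissue, fewer cells of a type and less RNA per cell cannot be told apart.

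**Figure D1:**
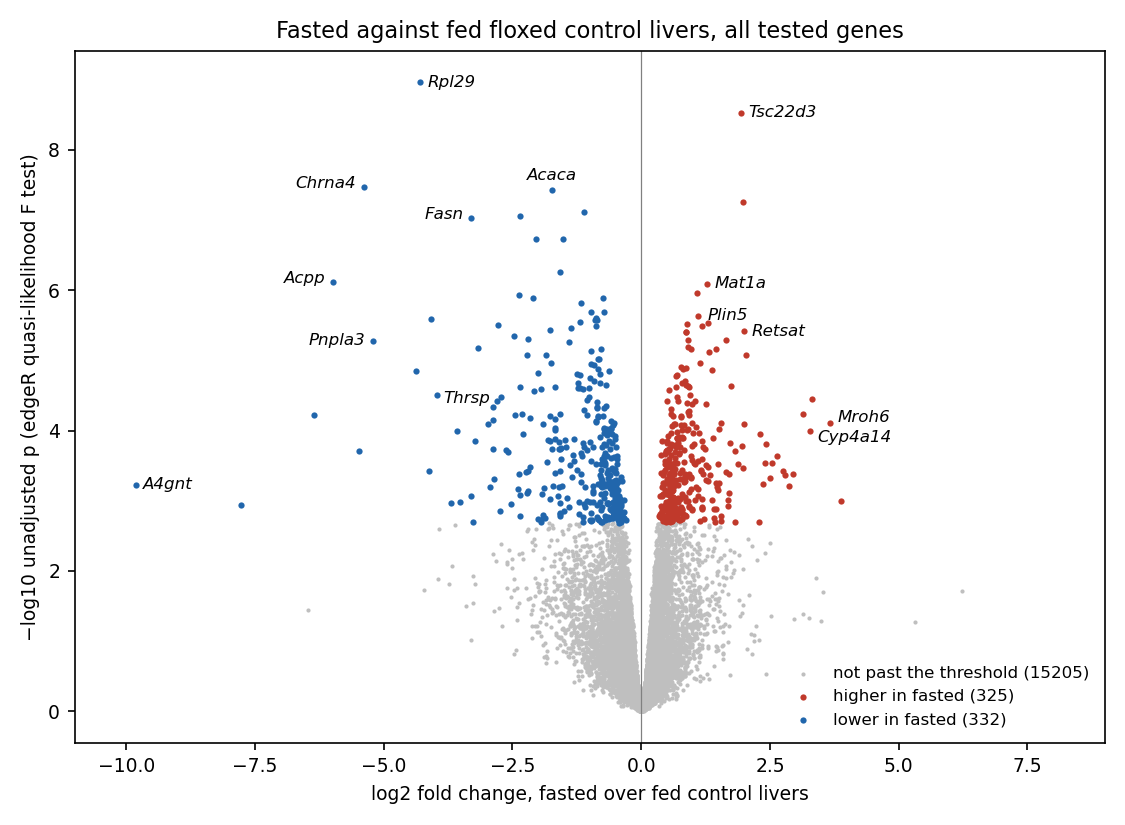
Log2 fold change of fasted over fed control livers (x axis) against the unadjusted p of the edgeR quasi-likelihood F test (y axis, −log10) for the 15862 tested genes. The 325 genes higher in fasted livers are red and the 332 lower ones blue; Rpl29 and Tsc22d3 have the smallest p on their sides, and the most negative fold change is that of A4gnt.

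Enzymes of fatty acid synthesis fell together. Of 14 tested genes of de novo lipogenesis, 11 were lower and 0 higher in fasted livers, with a median log2 fold change of -1.91, and 9 to 12 were lower whichever control library was left out. Fasn, the multifunctional fatty acid synthase, was at 195, 229 and 152 CPM in fasted livers, against 1241, 2545 and 1885 CPM in fed livers. Every fasted library lay below every fed one, and the difference was 9.84-fold (log2 fold change -3.30, SE 0.30, adjusted p = 0.000185). Acaca and Acacb, the cytosolic and mitochondrial acetyl-CoA carboxylases, make malonyl-CoA. Acaca was at 65.3, 72.8 and 48.7 CPM in fasted livers, against 179, 212 and 231 CPM in fed livers (log2 fold change -1.73, SE 0.15, adjusted p = 0.000147), and Acacb was 5.13-fold lower (adjusted p = 0.000185). All 3 genes passed whichever control library was left out. Acly, which splits citrate to cytosolic acetyl-CoA, was at 119, 146 and 129.9 CPM in fasted livers, against 383, 735 and 520 CPM in fed livers (log2 fold change -2.05, SE 0.21, adjusted p = 0.000296). Scd1, the stearoyl-CoA desaturase and the most abundant lipogenic transcript, averaged 2670 ± 1372 TPM in fasted and 13765 ± 5335 TPM in fed livers (SD, n = 3 each). Its counts gave a log2 fold change of -2.31 (adjusted p = 0.00769). Thrsp, a nuclear and cytosolic protein that promotes lipogenesis, was at 32, 82.2 and 80.6 CPM in fasted livers, against 865, 1296 and 873 CPM in fed livers (log2 fold change -3.96, SE 0.56, adjusted p = 0.00528). Pnpla3, a lipid droplet hydrolase and transacylase, was at 0, 0.0565 and 0.379 CPM in fasted livers, against 3.27, 7.38 and 7.62 CPM in fed livers, so 2 of the fasted libraries were below the limit of detection. Me1, which supplies NADPH, was 3.31-fold lower and missed the threshold without fasted control replicate 3 (adjusted p up to 0.0534).

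The promoter of Fasn is shown because Fasn had the largest fall among the abundant lipogenic enzymes. In the window from 250 bases before to 50 after the start of Fasn (chr11:120824498-120824797, minus strand, RefSeq, GRCm38.p6), capitals mark the pentamer CCAAT, the core of the element bound by the factor NF-Y, on either strand (ATTGG on the printed strand is CCAAT on the other). It reads, 5′ to 3′:
Fasn: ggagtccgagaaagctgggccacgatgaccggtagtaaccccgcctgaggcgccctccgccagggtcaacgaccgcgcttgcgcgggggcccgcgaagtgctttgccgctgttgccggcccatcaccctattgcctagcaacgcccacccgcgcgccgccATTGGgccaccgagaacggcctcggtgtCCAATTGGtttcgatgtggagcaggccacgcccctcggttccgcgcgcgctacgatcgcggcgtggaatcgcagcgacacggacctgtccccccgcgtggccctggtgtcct
CCAAT occurs 3 times, at positions -90, -62 and -59, and the last 2 overlap in CCAATTGG. Of the 12 lipogenic genes with a RefSeq promoter window, 8 had at least 1 CCAAT, in 8 of 15 windows. Of all 32851 windows, 37.4% had one. The sterol response letters TCACNCCAC were in 0 of the 15 lipogenic windows and in 1.24% of all windows, which says only that these letters are not in these 300 bases.

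Srebf1, Insig1 and Mlxipl, upstream of lipogenesis, fell. Of 14 tested regulators of the SREBP, ChREBP and LXR group, 3 were lower and 0 higher (median -0.026). Srebf1, which encodes SREBP-1, was at 196, 94.8 and 86.9 CPM in fasted livers, against 564, 840.4 and 534 CPM in fed livers (log2 fold change -2.36, SE 0.34, adjusted p = 0.0045), with no overlap between groups. Insig1, which holds SREBP precursors in the endoplasmic reticulum, was at 218 ± 58.5 CPM in fasted and 479 ± 65.6 CPM in fed livers (SD, n = 3 each) with a log2 fold change of -1.14 (adjusted p = 0.0118). Mlxipl, which encodes ChREBP, changed less, by -0.77 (adjusted p = 0.0125). The call of Insig1 ended without fasted control replicate 2 or 3 (adjusted p up to 0.0594) and that of Mlxipl without fed control replicate 2 (adjusted p up to 0.0513). Nr1h3, the oxysterol receptor LXR alpha, was at 98.8, 92.2 and 97.8 CPM in fasted livers, against 81.2, 78.2 and 66.6 CPM in fed livers, and its difference missed the threshold (log2 fold change 0.35, adjusted p = 0.0548).

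Genes of NADPH supply also fell, as did the elongase Elovl6. Of 10 tested genes of the pentose phosphate pathway and cytosolic NADPH, 5 were lower and 0 higher (median -0.47). Pgd, the second NADPH-forming dehydrogenase of the pathway, was at 27.5, 28.3 and 26.9 CPM in fasted livers, against 49.3, 53.7 and 91.5 CPM in fed livers (log2 fold change -1.24, SE 0.19, adjusted p = 0.00451). Tkt, transketolase of the non-oxidative branch, changed by -0.84 (adjusted p = 0.00769), and Idh1, the cytosolic isocitrate dehydrogenase, by -0.56 (adjusted p = 0.0273), though not without fasted control replicate 1, 2 or 3 or fed control replicate 1 or 2 (adjusted p up to 0.107). The count of 5 was 2 when fasted control replicate 3 was left out, and 3 without fasted control replicate 1 or 2 or fed control replicate 2. Among 16 tested elongases and desaturases, 4 were lower and 1 higher (median -0.26). The lower genes were the elongation genes Elovl6 and Hsd17b12 and the desaturases Scd1 and Fads1. Elovl6, which extends palmitate to stearate, was at 55.6, 70.4 and 41 CPM in fasted livers, against 305, 413 and 430.3 CPM in fed livers (log2 fold change -2.78, SE 0.32, adjusted p = 0.00168), and this was the largest fall of the list. Hacd3, a 3-hydroxyacyl-CoA dehydratase of the elongation cycle, was 1.42-fold higher (adjusted p = 0.0129) and missed the threshold without fasted control replicate 2 (adjusted p up to 0.0551). The count of 4 was 2 without fasted control replicate 2 or 3 or fed control replicate 1.

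Gpam, of triglyceride assembly, fell, while Plin5 and Pnpla2, of lipid droplets, rose. Gpam, the mitochondrial acyltransferase that commits acyl-CoA to glycerolipids, was at 236, 276 and 244 CPM in fasted livers, against 608, 729 and 914 CPM in fed livers (log2 fold change -1.57, SE 0.17, adjusted p = 0.000788). Gk, glycerol kinase, which lets the liver use glycerol released by lipolysis, was at 190.2, 232 and 193 CPM in fasted livers, against 110.4, 92.9 and 110 CPM in fed livers (log2 fold change 0.97, SE 0.14, adjusted p = 0.00235). For both genes the groups did not overlap. Of 16 tested genes of glycerolipid assembly, 2 were higher and 1 lower, beside 2.05% and 2.09% of all tested genes. The other higher gene was Agpat3, an acyltransferase of phosphatidate synthesis (log2 fold change 0.57, adjusted p = 0.0296), and the count of 2 was 1 without fasted control replicate 2 or fed control replicate 1 or 2. Of 18 tested genes of lipid droplets and lipolysis, 4 were higher and 0 lower. Plin5, a droplet coat protein of oxidative tissues, was at 38.5, 56.9 and 47.5 CPM in fasted livers, against 23.7, 18.2 and 21.5 CPM in fed livers (log2 fold change 1.17, SE 0.15, adjusted p = 0.00168). Pnpla2, the adipose triglyceride lipase ATGL, was at 132, 145 and 125 CPM in fasted livers, against 85.4, 88.7 and 85.9 CPM in fed livers (log2 fold change 0.63, SE 0.11, adjusted p = 0.00885). Neither G0s2, the inhibitor of ATGL, at 80.5, 149 and 147 CPM in fasted livers, against 146, 40.4 and 71.7 CPM in fed livers, nor Lpin1, a phosphatidate phosphatase, passed the threshold, with log2 fold changes of 0.55 and -0.0062 (adjusted p = 0.6 and 0.996). The count of 4 was 2 without fasted control replicate 2 or 3 or any 1 of the fed control libraries, and Plin5 and Pnpla2 passed in each of these fits. Markers of adipocytes were measured because several lipogenic genes are also high in fat. Their summed level was 3.47 to 12 TPM in fasted livers and 24.5 to 66.4 TPM in fed livers, and 2 of the 6 markers were tested, with 0 called. Cfd, complement factor D, was at 3.56, 0.622 and 1.85 CPM in fasted livers, against 24.3, 13.9 and 6.71 CPM in fed livers. Adrb3, the beta-3 adrenergic receptor, was at 2.57, 2.37 and 4.51 CPM in fasted livers, against 3.7, 6.49 and 3.67 CPM in fed livers, with overlapping groups. The other 4 markers were at or near 0. Retn, resistin, had 1, 0 and 0 counts in fasted livers, against 8, 5 and 2 counts in fed livers. Adipoq, the defining adipocyte gene, had 0, 4 and 3 counts in fasted livers and 0 counts in every fed library. Ucp1 had 2 counts in fed control replicate 3 and 0 in the other 5 control libraries, and Lep, leptin, had 0 counts in all 6.

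Genes of mitochondrial beta-oxidation rose. Of 20 tested genes, 13 were higher and 0 lower, and the median was 0.64 on the log2 scale. The fold change was positive for all 20, beside 7858 of all 15862 tested genes. The count of 13 was 7 to 12 whichever control library was left out. It was 7 without fasted control replicate 2 and 8 without fed control replicate 2. Cpt1a, which commits long-chain fatty acids to the mitochondrion, was at 876, 931 and 982 CPM in fasted livers, against 491, 464 and 536 CPM in fed livers (log2 fold change 0.90, SE 0.12, adjusted p = 0.00205). Cpt2, which releases them inside, was 1.82-fold higher (adjusted p = 0.00334). Hadhb, the thiolase subunit of the trifunctional protein, was at 225, 302 and 247 CPM in fasted livers, against 144, 135 and 138 CPM in fed livers (log2 fold change 0.89, SE 0.11, adjusted p = 0.00168), and Acadm, the medium-chain dehydrogenase, was 1.83-fold higher (adjusted p = 0.00446). The fasted libraries lay above the fed ones for each of these 4 genes, and each passed whichever control library was left out.

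**Figure D2:**
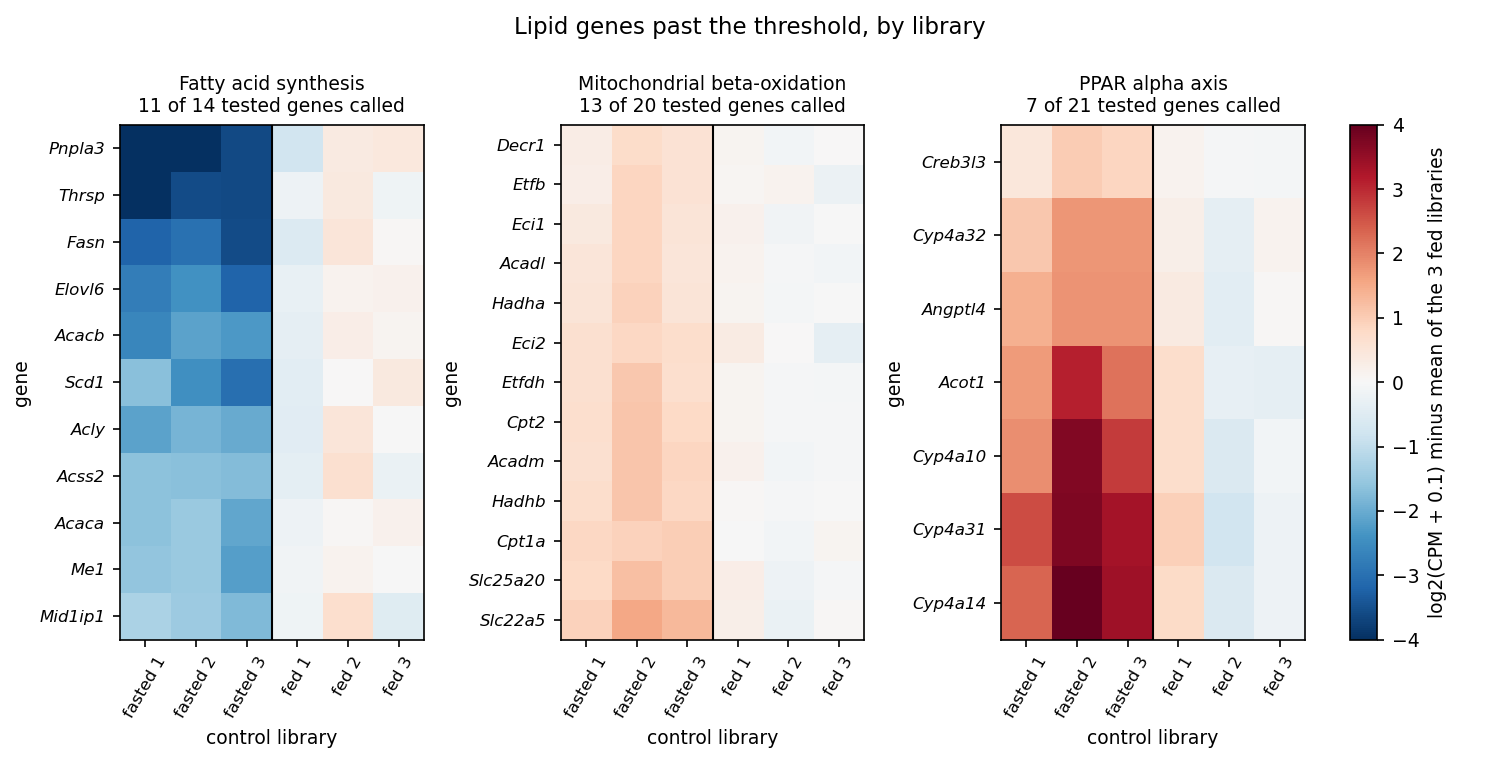
Each cell is the log2 of CPM plus 0.1 in 1 control library minus the mean of the 3 fed libraries, for the genes past the threshold in 3 lists (rows). The 3 fasted libraries are on the left and the 3 fed libraries on the right of each panel; 11 genes of fatty acid synthesis are lower in each fasted library, and 13 genes of mitochondrial beta-oxidation and 7 of the PPAR alpha axis are higher, with fasted control replicate 2 highest for the Cyp4a genes. Colours end at -4 and 4.

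The Cyp4a genes, known targets of PPAR alpha, were among the largest rises. Cyp4a14, a fatty acid omega-hydroxylase, was at 2029, 6333 and 4250 CPM in fasted livers, against 682, 271 and 350 CPM in fed livers, a 9.67-fold difference (log2 fold change 3.27, SE 0.54, adjusted p = 0.00976). Its neighbours in the same gene cluster on chromosome 4 differed in size of response. Cyp4a31 was 8.86-fold and Cyp4a32 2.92-fold higher (adjusted p = 0.00769 and 0.00885). Cyp4a10 was at 994, 3587 and 1910 CPM in fasted livers, against 444, 183 and 255 CPM in fed livers (log2 fold change 2.88, SE 0.59, adjusted p = 0.0248), and its call ended without fasted control replicate 2 or 3 or fed control replicate 2 or 3 (adjusted p up to 0.106). Per length, Cyp4a14 averaged 3890 ± 1746 TPM in fasted and 419 ± 195 TPM in fed livers, against 26 ± 8.06 TPM in fasted and 3.04 ± 1.83 TPM in fed livers for Cyp4a31 (SD, n = 3 each). These paralogs are similar in sequence, so reads may be split between them. Acot1, a cytosolic acyl-CoA thioesterase with close paralogs, was 5.17-fold higher (adjusted p = 0.0242) and missed the threshold without fasted control replicate 2 or 3 or fed control replicate 2 or 3 (adjusted p up to 0.092). Creb3l3, a liver transcription factor that acts with PPAR alpha, was at 314, 465 and 423 CPM in fasted livers, against 253, 225 and 217 CPM in fed livers (log2 fold change 0.79, SE 0.15, adjusted p = 0.0109). Among 21 tested genes of the PPAR alpha axis, 7 were higher and 0 lower (median 0.50), and the count was 4 without fasted control replicate 2 or 3 or fed control replicate 2. Ppara itself was at 151, 146 and 172 CPM in fasted livers, against 182, 137 and 154 CPM in fed livers, with overlapping groups (log2 fold change -0.013, adjusted p = 0.971). Without fed control replicate 2, 1 gene of the list, Pdk4, was lower.

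Of 18 tested peroxisomal genes, 6 were higher and 1 lower, beside 2.05% and 2.09% of all tested genes. Of these genes, 4 to 5 were higher whichever control library was left out. Crot, which hands shortened acyl chains to carnitine, was at 951, 842 and 1069 CPM in fasted livers, against 405, 321 and 424 CPM in fed livers (log2 fold change 1.32, SE 0.18, adjusted p = 0.00245). Acaa1a, the peroxisomal thiolase, Ech1, a dienoyl-CoA isomerase, and Acot8, a thioesterase, had log2 fold changes of 0.78, 0.90 and 0.92, and all 3 passed in every fit that left out 1 library. The lower gene was Nudt7, a peroxisomal coenzyme A hydrolase, at 148, 106 and 146 CPM in fasted livers, against 481, 502 and 191 CPM in fed livers. Its call ended without fasted control replicate 2 or 3 or fed control replicate 2 (adjusted p up to 0.068). Bdh1, which makes beta-hydroxybutyrate, had higher levels in each fasted library than in any fed one, with a log2 fold change of 0.29 (adjusted p = 0.229) that missed the threshold. Acat1, a mitochondrial thiolase, was likewise higher in each fasted library and missed it (log2 fold change 0.47, adjusted p = 0.0554).

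**Figure D3:**
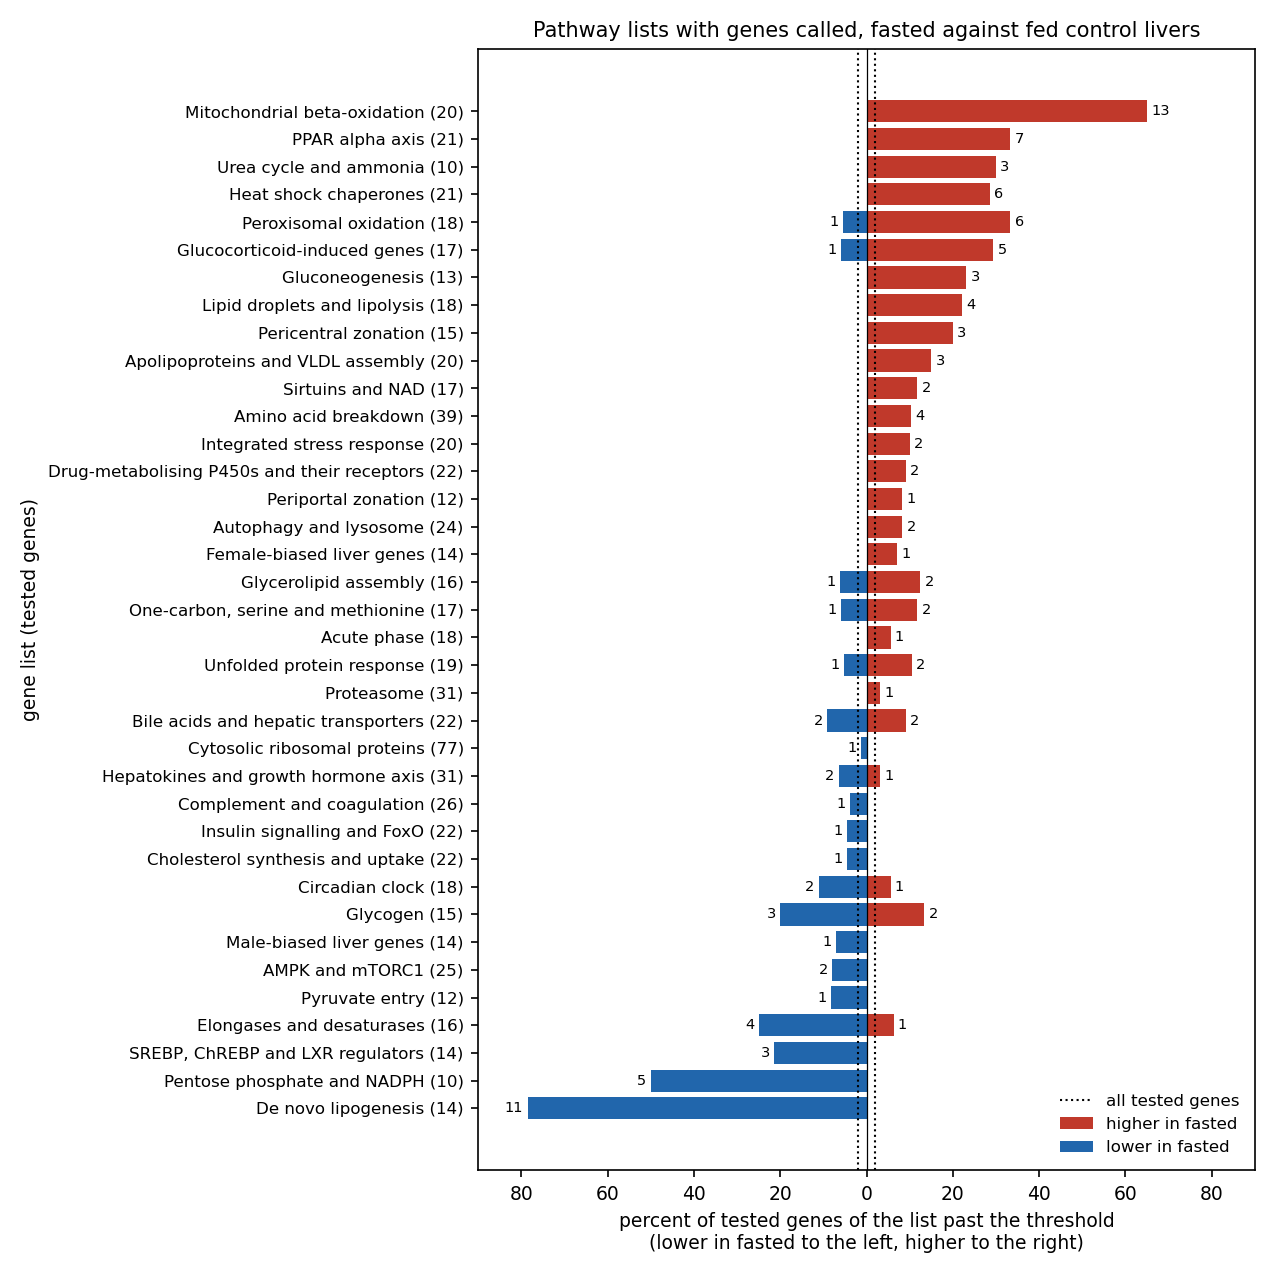
Percent of tested genes that passed the threshold in each pathway list described here with at least 1 such gene, with bars to the left for genes lower and to the right for genes higher in fasted livers, and the number of genes at the end of each bar. Dotted lines mark the shares of all tested genes (2.05% higher, 2.09% lower); de novo lipogenesis (11 of 14) and mitochondrial beta-oxidation (13 of 20) are at the ends.

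Pck1 rose among the genes of glucose production, and Pklr fell among those of glucose use. Of 13 tested gluconeogenic genes, 3 were higher and 0 lower, beside 2.05% and 2.09% of all tested genes. Pck1, the cytosolic phosphoenolpyruvate carboxykinase, was at 3627, 4108 and 4072 CPM in fasted livers, against 2005, 1691 and 1419 CPM in fed livers (log2 fold change 1.21, SE 0.23, adjusted p = 0.0125). Fbp1, fructose-1,6-bisphosphatase, was 1.45-fold higher (adjusted p = 0.0235), but not without fasted control replicate 2 or 3 or fed control replicate 1 or 2 (adjusted p up to 0.09). The third gene was glycerol kinase, described above. G6pc, the catalytic subunit of glucose-6-phosphatase that makes free glucose, was at 158, 285 and 258 CPM in fasted livers, against 222, 288 and 271 CPM in fed livers, with overlapping groups (log2 fold change -0.16, adjusted p = 0.886). Pklr, liver pyruvate kinase, was at 87.7, 183 and 92.2 CPM in fasted livers, against 422, 694 and 516 CPM in fed livers (log2 fold change -2.17, SE 0.41, adjusted p = 0.0179), and its call ended without fasted control replicate 1 or 3 or fed control replicate 2 (adjusted p up to 0.0764). Ldha, lactate dehydrogenase A, rose to 1375, 1099 and 1250 CPM in fasted livers, against 687, 552 and 613 CPM in fed livers (log2 fold change 1.01, SE 0.18, adjusted p = 0.0102). Dlat, the acetyltransferase subunit of pyruvate dehydrogenase, was at 51.3, 52.5 and 38.4 CPM in fasted livers, against 79.6, 106 and 95.3 CPM in fed livers (log2 fold change -0.98, SE 0.14, adjusted p = 0.00318), and it was the sole call among 12 tested genes of pyruvate entry, where 2 passed without fed control replicate 2 or 3.

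Glycogen genes changed in both directions. Of 15 tested genes, 3 were lower and 2 higher. The higher genes were Gaa, the lysosomal glucosidase, and Phkg2, the catalytic subunit of liver phosphorylase kinase, which had a log2 fold change of 0.46 (adjusted p = 0.014). Of the higher genes, 0 passed without fasted control replicate 2 and 1 without each of the other control libraries. Gbe1, the branching enzyme, was at 85.4, 116 and 83.7 CPM in fasted livers, against 219, 228 and 291 CPM in fed livers (log2 fold change -1.37, SE 0.18, adjusted p = 0.00171). Pygl, the liver phosphorylase that degrades glycogen, was at 205, 296 and 202 CPM in fasted livers, against 479.5, 589.6 and 468 CPM in fed livers (log2 fold change -1.13, SE 0.18, adjusted p = 0.00455). Ppp1r3g, a glycogen-targeting subunit of protein phosphatase 1, was at 1.24, 0.848 and 0.632 CPM in fasted livers, against 10.3, 4.07 and 17.9 CPM in fed livers, which is 11.9-fold lower, and missed the threshold without fasted control replicate 3 (adjusted p up to 0.0531). Slc2a4, the insulin-responsive glucose transporter GLUT4, is low in liver and was at 0.247, 0.0565 and 0.169 CPM in fasted livers, against 2.28, 5.28 and 2.86 CPM in fed livers, near the limit of detection in fasted livers (log2 fold change -4.38, SE 0.64, adjusted p = 0.00341).

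Several genes that are often used to read a fast did not pass the threshold. Fgf21, a fasting hormone of the liver, was at 3.26, 4.69 and 5.44 CPM in fasted livers, against 1.33, 0.514 and 3.63 CPM in fed livers, with a log2 fold change of 1.29 (SE 0.61, adjusted p = 0.274). Without fed control replicate 3, the highest fed library, its log2 fold change was 2.27 and it passed (adjusted p = 0.0496). Pdk4, the kinase that shuts pyruvate dehydrogenase, was at 5.58, 6.22 and 6.24 CPM in fasted livers, against 11.1, 5.14 and 30.4 CPM in fed livers, with 2 fed libraries above and 1 below all fasted ones. Its log2 fold change was -1.37 (SE 0.51, adjusted p = 0.169), and without fed control replicate 2 it was -1.79 and passed as lower (adjusted p = 0.03). Without fed control replicate 3 its adjusted p was 0.5. Igfbp1, an insulin-repressed binding protein, was at 23.6, 24.4 and 31.1 CPM in fasted livers, against 11.7, 5.14 and 41.7 CPM in fed livers, and fed control replicate 3 was again the highest library (log2 fold change 0.43, adjusted p = 0.76). Ppargc1a, the coactivator of gluconeogenesis and mitochondrial genes, was at 11.9, 8.76 and 13.2 CPM in fasted livers, against 11.4, 12.2 and 10.4 CPM in fed livers (log2 fold change -0.0037, adjusted p = 0.993). Irs2, an insulin receptor substrate induced by FoxO and CREB, was at 24.7, 20.5 and 18.6 CPM in fasted livers, against 15.9, 14.4 and 14.8 CPM in fed livers, without overlap, and missed the threshold (log2 fold change 0.50, adjusted p = 0.107). Cyp7a1, the rate-limiting enzyme of bile acid synthesis, ranged widely, at 324, 153 and 147 CPM in fasted livers, against 67.5, 176 and 66.4 CPM in fed livers (log2 fold change 1.01, adjusted p = 0.446). Angptl4, a secreted inhibitor of lipoprotein lipase, did pass, at 139.9, 182 and 181 CPM in fasted livers, against 67.3, 38.5 and 54.1 CPM in fed livers (log2 fold change 1.65, SE 0.32, adjusted p = 0.0193), though not without fasted control replicate 2 or 3 or fed control replicate 2 or 3 (adjusted p up to 0.0667). A p that misses the threshold does not show that these levels were equal.

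**Figure D4:**
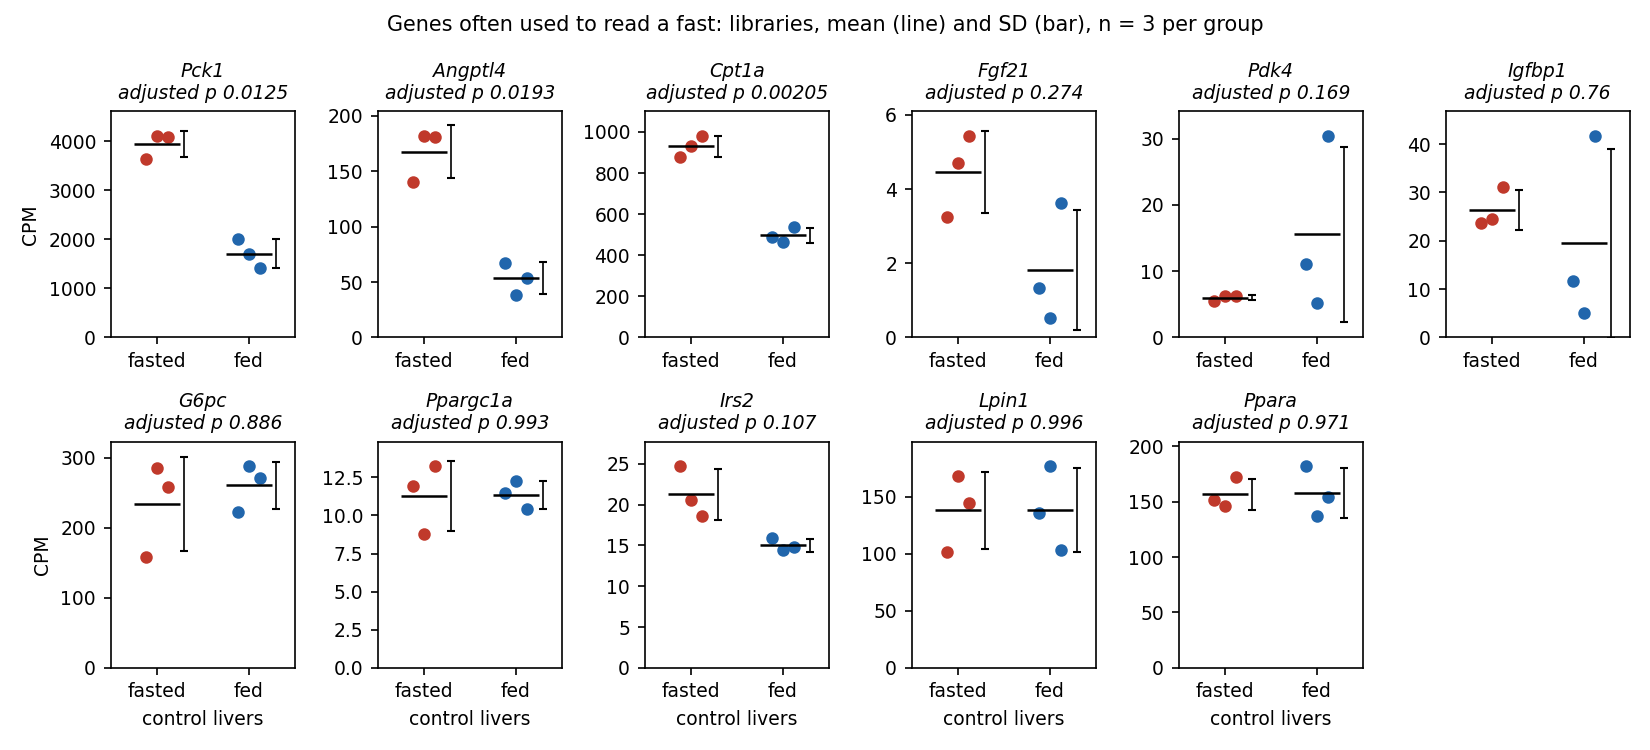
CPM (y axis, from 0) of 11 genes in the 3 fasted (red, left) and 3 fed (blue, right) control libraries, with the mean as a line and the SD as a bar. The groups stand apart for Pck1, Angptl4, Cpt1a and Irs2, while fed control replicate 3 is the highest fed library for Fgf21, Pdk4 and Igfbp1, and the groups overlap for G6pc, Ppargc1a, Lpin1 and Ppara.

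In insulin signalling 1 gene passed, and in the growth hormone axis some did, where 4.14% of all tested genes passed. Of 22 tested genes of insulin signalling and FoxO, Gadd45a alone passed. Gadd45a, a growth arrest gene known as a FoxO target, was lower, at 2.67, 3.22 and 3.41 CPM in fasted livers, against 10.4, 15.1 and 14.4 CPM in fed livers (log2 fold change -2.10, SE 0.25, adjusted p = 0.0012). Foxo3 was at 44.2, 39.9 and 38 CPM in fasted livers, against 45.5, 44.5 and 50.4 CPM in fed livers and Foxo1 at 53.3, 56.6 and 68.5 CPM in fasted livers, against 51.6, 42.3 and 44.4 CPM in fed livers, with log2 fold changes of -0.20 and 0.37 that missed the threshold (adjusted p = 0.261 and 0.161). In that list 1 gene was higher without fasted control replicate 1 or fed control replicate 3, and 2 were lower without fed control replicate 1. Of 31 tested genes of hepatokines and the growth hormone axis, 1 was higher and 2 lower. The higher count was 0 without fasted control replicate 2 or 3 or fed control replicate 2. The lower count was 0 without fasted control replicate 2 or 3, 1 without fed control replicate 1 or 2 and 4 without fed control replicate 3. Igf1, the growth hormone target whose liver product supplies most circulating IGF-1, missed the threshold (log2 fold change 0.11, adjusted p = 0.764). Cish, a feedback inhibitor induced by growth hormone through STAT5, was at 8.59, 4.18 and 3.67 CPM in fasted livers, against 23.6, 53.1 and 22.1 CPM in fed livers (log2 fold change -2.59, SE 0.46, adjusted p = 0.0133), with an antisense gene over the same locus, and missed the threshold without fasted control replicate 2 or 3 (adjusted p up to 0.0642). Cish lies on chromosome 9 (107296026 to 107302784), near Rpl29, which is described below. In knockout mice it was at 8.18, 5.75 and 8.11 CPM in fasted livers, against 7.52, 11.2 and 17.2 CPM in fed livers (log2 fold change -0.70, adjusted p = 0.527). The interaction with genotype missed the threshold (edgeR, adjusted p = 0.617). An effect of the fast on Cish cannot be told apart from another difference of these mice. Fst, the activin inhibitor follistatin, was 2.15-fold lower (adjusted p = 0.0352), but not without fasted control replicate 2 or 3 or fed control replicate 1, 2 or 3 (adjusted p up to 0.116).

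Some genes of amino acid breakdown rose. Of 39 tested genes of amino acid breakdown, 4 were higher and 0 lower, beside 2.05% and 2.09% of all tested genes. Of the 39, 32 had a positive fold change (median 0.29), beside 7858 of the 15862 tested genes. Tat, tyrosine aminotransferase and a classical glucocorticoid target, was at 1367, 1278 and 1597 CPM in fasted livers, against 826, 889 and 597 CPM in fed livers (log2 fold change 0.88, SE 0.19, adjusted p = 0.0213) and missed the threshold without fasted control replicate 3 (adjusted p up to 0.0871). Cth, which forms cysteine from cystathionine, was 2.29-fold higher, and Oat, ornithine aminotransferase, 2.06-fold (adjusted p = 0.0199 and 0.0328). Neither passed without fasted control replicate 2 or 3 or fed control replicate 2 or 3. The list's count was 0 without fasted control replicate 3, 1 without replicate 2 of that group and 2 without fed control replicate 2 or 3, where 1 gene was lower without the last. Of 10 tested urea cycle genes, 3 were higher: Asl, argininosuccinate lyase, and the mitochondrial carriers Slc25a13 and Slc25a15, with log2 fold changes of 1.10, 0.65 and 0.56. That count was 0 without fasted control replicate 2 or 3 and 1 without fed control replicate 3. Mat1a, which makes the methyl donor S-adenosylmethionine in liver, gave one of the clearest rises, at 5915, 7497 and 6940 CPM in fasted livers, against 2898, 2975 and 2498 CPM in fed livers (log2 fold change 1.28, SE 0.15, adjusted p = 0.000995). Nnmt, which spends this donor on nicotinamide, was at 160, 122 and 228 CPM in fasted livers, against 53.9, 50 and 26 CPM in fed livers (log2 fold change 1.97, SE 0.38, adjusted p = 0.0181), and missed the threshold without fasted control replicate 3 or fed control replicate 2 or 3 (adjusted p up to 0.0667). Ahcy, which clears the product of methylation, had a log2 fold change of 0.83 (adjusted p = 0.0535), which missed the threshold. Mtr, methionine synthase, was the sole lower gene of the 17 tested in one-carbon and methionine metabolism (log2 fold change -0.44, adjusted p = 0.0395), and its call ended without fasted control replicate 1, 2 or 3 or fed control replicate 1 or 3 (adjusted p up to 0.132).

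Glucocorticoid-induced genes included the strongest rise by p. Of 17 tested genes, 5 were higher and 1 lower (median 0.78), beside 2.05% and 2.09% of all tested genes. Tsc22d3, the glucocorticoid-induced leucine zipper GILZ, was at 107, 132 and 159 CPM in fasted livers, against 35.6, 36.7 and 31.7 CPM in fed livers (log2 fold change 1.94, SE 0.14, adjusted p = 2.34e-05). Klf15, a fasting-induced factor that controls amino acid breakdown, was at 197, 212 and 222 CPM in fasted livers, against 136, 126 and 91.4 CPM in fed livers (log2 fold change 0.84, SE 0.15, adjusted p = 0.00888), and Per1, a clock gene with glucocorticoid response elements, at 51.9, 60.9 and 72.1 CPM in fasted livers, against 37.7, 37.4 and 32.7 CPM in fed livers (log2 fold change 0.78, SE 0.13, adjusted p = 0.00769). Dusp1, a MAP kinase phosphatase that glucocorticoids induce in many cells, was lower, at 14.9, 22.2 and 26.1 CPM in fasted livers, against 59.7, 61.7 and 64.5 CPM in fed livers (log2 fold change -1.56, SE 0.28, adjusted p = 0.0125), and missed the threshold without fasted control replicate 2 (adjusted p up to 0.0511). The count of 5 was 3 without fasted control replicate 3. Of 18 tested clock genes, Per1 was higher and 2 were lower, and 2 were higher without fasted control replicate 1. Bhlhe40, a clock repressor, was at 106, 128 and 118 CPM in fasted livers, against 210.5, 228 and 213 CPM in fed livers (log2 fold change -0.88, SE 0.11, adjusted p = 0.00168), and Rora, an activator of Bmal1, was 1.48-fold lower (adjusted p = 0.0103). Arntl, which encodes Bmal1, was between 1.90 and 2.04 CPM in fasted and between 0.748 and 1.09 CPM in fed livers (log2 fold change 1.08, adjusted p = 0.0947). The labels give no hour of sampling, so an effect of clock time cannot be told apart from the fast.

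Several heat shock chaperones rose. Of 21 tested genes, 6 were higher and 0 lower, and the median was 0.45. A positive fold change was found for 18 of the 21, beside 7858 of all 15862 tested genes. Hspa1b, the inducible HSP70, was at 12.4, 17.5 and 15.2 CPM in fasted livers, against 2.42, 2.52 and 3.49 CPM in fed livers (log2 fold change 2.42, SE 0.43, adjusted p = 0.0119), and missed the threshold without fed control replicate 2 (adjusted p up to 0.053). Its near-identical copy Hspa1a could share its reads. Hsph1, a co-chaperone of the HSP110 family, was at 43.4, 71.5 and 65.5 CPM in fasted livers, against 23.3, 14.8 and 17.7 CPM in fed livers (log2 fold change 1.69, SE 0.37, adjusted p = 0.0326), and Hspa8, the constitutive HSC70, at 925, 1472 and 1202 CPM in fasted livers, against 660.3, 666 and 572 CPM in fed livers (log2 fold change 0.92, SE 0.20, adjusted p = 0.0199). The groups did not overlap for any of the 3 genes. The calls of Hsph1 and Hspa8 ended without fasted control replicate 2 or 3 or fed control replicate 1, 2 or 3 (adjusted p up to 0.112) and without fasted control replicate 2 or 3 or fed control replicate 1 or 2 (adjusted p up to 0.0854). The count of 6 was 1 without fasted control replicate 2 or 3, 0 without fed control replicate 2 and 2 without fed control replicate 1 or 3.

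Promoter windows of 2 of these genes show the letters of the heat shock element, inverted repeats of GAA. Capitals mark GAANNTTC and TTCNNGAA, each of which reads the same on both strands, so either strand finds the same places. The Hspa1b window (chr17:34959189-34959488, minus strand) has 1 such match, and the Hsph1 window (chr5:149636287-149636586, minus strand) has 3, of which 2 overlap after the start. Both are RefSeq windows of build GRCm38.p6, 5′ to 3′:
Hspa1b: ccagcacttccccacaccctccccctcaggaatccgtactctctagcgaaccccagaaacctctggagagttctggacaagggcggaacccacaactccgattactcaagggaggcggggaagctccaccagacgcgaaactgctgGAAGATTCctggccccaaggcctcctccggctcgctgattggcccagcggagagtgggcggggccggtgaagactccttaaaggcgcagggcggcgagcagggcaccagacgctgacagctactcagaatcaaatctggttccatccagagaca
Hsph1: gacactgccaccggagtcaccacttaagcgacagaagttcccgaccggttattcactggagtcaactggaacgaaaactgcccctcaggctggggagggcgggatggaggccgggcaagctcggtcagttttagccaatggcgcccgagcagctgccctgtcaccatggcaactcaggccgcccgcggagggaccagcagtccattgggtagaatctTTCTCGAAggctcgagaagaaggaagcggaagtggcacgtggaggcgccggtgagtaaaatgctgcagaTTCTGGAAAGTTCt
GAANNTTC was found in 12 of 21 windows of the list's 16 matched genes and in 7.86% of all 32851 windows. TTCNNGAA was found in 5 of the 21 windows and in 8.52% of all windows. A match is a description of the letters, not of a bound site.

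Some genes of other stress pathways passed, where 2.05% of all tested genes were higher and 2.09% lower in fasted livers. Of 20 tested genes of the integrated stress response, Atf5 and Cebpb were higher. Atf5, a stress-induced transcription factor that is abundant in liver, was at 414, 462 and 328 CPM in fasted livers, against 225, 199 and 211 CPM in fed livers (log2 fold change 0.92, SE 0.14, adjusted p = 0.0045). Of 19 tested genes of the unfolded protein response, 2 were higher and 1 lower. Herpud1, a membrane protein of endoplasmic reticulum degradation, was 2.05-fold higher (adjusted p = 0.0168), while Pdia6, a disulfide isomerase of the same compartment, was at 120, 94.5 and 123 CPM in fasted livers, against 221, 215 and 185 CPM in fed livers (log2 fold change -0.88, SE 0.15, adjusted p = 0.00855). The call of Herpud1 ended without fasted control replicate 2 or 3 or fed control replicate 2 (adjusted p up to 0.0683). The higher count of that list was 0 without fasted control replicate 2 or 3 or fed control replicate 2, and 1 without fed control replicate 3. Cebpb, a liver transcription factor, had a log2 fold change of 0.71 (adjusted p = 0.0247), and its call ended without fasted control replicate 1, 2 or 3 or fed control replicate 2 or 3 (adjusted p up to 0.0946). Of 24 autophagy and lysosome genes, Map1lc3a and Map1lc3b, which encode LC3 proteins of the autophagosome, were the 2 calls, with log2 fold changes of 0.62 (adjusted p = 0.0234) and 0.54 (adjusted p = 0.0202). The call of Map1lc3a ended without fasted control replicate 1 or 2 or fed control replicate 2 or 3 (adjusted p up to 0.0924). That of Map1lc3b ended without fasted control replicate 3 or fed control replicate 1 or 3 (adjusted p up to 0.0827). Of 25 tested genes of AMPK and mTORC1, Tsc1, a brake on mTORC1, and Fnip2, a folliculin partner, were lower (log2 fold change -0.49, adjusted p = 0.031, and log2 fold change -0.73, adjusted p = 0.0119). The call of Tsc1 ended without fasted control replicate 2 or 3 or fed control replicate 1, 2 or 3 (adjusted p up to 0.123). That of Fnip2 ended without fasted control replicate 3 (adjusted p up to 0.0546). Of 17 tested genes of sirtuins and NAD, the 2 calls were Nnmt and Naprt, which makes NAD from nicotinic acid (log2 fold change 0.57, adjusted p = 0.0476), and the count was 0 without fasted control replicate 3 or fed control replicate 3 and 1 without any of the other 4.

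Sterol, bile acid and lipoprotein genes gave some calls, and most genes of cholesterol synthesis and uptake had a negative fold change. Among 22 tested genes of cholesterol synthesis and uptake, Sc5d, lathosterol oxidase, was the sole call, at 414, 332 and 245 CPM in fasted livers, against 728, 886 and 731 CPM in fed livers (log2 fold change -1.24, SE 0.19, adjusted p = 0.00369). The list's median was -0.44, 18 of 22 genes were negative, beside 8004 of all 15862 tested genes, and 3 genes passed without fasted control replicate 1. DESeq2 called 5 genes of the list lower, and the fit with a replicate block called 4. Cyp2c70, which makes the muricholic acids of rodent bile, was at 69.5, 66.7 and 61.8 CPM in fasted livers, against 351, 489 and 259 CPM in fed livers (log2 fold change -2.47, SE 0.30, adjusted p = 0.00192), a 5.55-fold fall. Cyp8b1, the sterol 12-alpha-hydroxylase that makes cholic acid, was at 597, 642 and 448 CPM in fasted livers, against 164, 263 and 204 CPM in fed livers (log2 fold change 1.42, SE 0.34, adjusted p = 0.0451), and it missed the threshold without any 1 of the 6 control libraries (adjusted p up to 0.14). Abcb11, the bile salt export pump, was at 247, 318 and 279 CPM in fasted livers, against 528, 557 and 431 CPM in fed livers, and Abcb4, the phospholipid exporter next to it in the canaliculus, at 366, 489 and 416 CPM in fasted livers, against 260, 194 and 276 CPM in fed livers. Their log2 fold changes were -0.85 (adjusted p = 0.0242) and 0.80 (adjusted p = 0.0391). The call of Abcb11 ended without fasted control replicate 1, 2 or 3 or fed control replicate 1 or 2 (adjusted p up to 0.0835). That of Abcb4 ended without fasted control replicate 2 or 3 or fed control replicate 1 or 2 (adjusted p up to 0.141). Apoc4, a minor apolipoprotein, was 1.62-fold higher (adjusted p = 0.00996), among 3 higher of 20 tested lipoprotein genes, beside 2.05% of all tested genes. The other 2 were Lcat, which esterifies cholesterol in plasma, and Scarb1, the HDL receptor (log2 fold change 0.79, adjusted p = 0.0188, and log2 fold change 0.35, adjusted p = 0.0442). That count was 1 without fasted control replicate 1 or 2, and Scarb1 missed the threshold without any 1 of the 6 control libraries (adjusted p up to 0.126). Without fasted control replicate 1, 1 lipoprotein gene was lower.

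Nr1i3 and Ahr, receptors of drug metabolism, rose. Nr1i3, the constitutive androstane receptor, was at 411, 794 and 583 CPM in fasted livers, against 341, 214 and 175 CPM in fed livers (log2 fold change 1.29, SE 0.28, adjusted p = 0.023), and Ahr, the aryl hydrocarbon receptor, at 62.6, 84.1 and 66 CPM in fasted livers, against 41.4, 41.5 and 40.8 CPM in fed livers (log2 fold change 0.78, SE 0.19, adjusted p = 0.0368). The call of Nr1i3 ended without fasted control replicate 2 or 3 or fed control replicate 2 or 3 (adjusted p up to 0.0856). That of Ahr ended without fasted control replicate 2 or 3 or fed control replicate 1, 2 or 3 (adjusted p up to 0.136). No other of the 22 tested genes passed. Zonation genes gave calls in both zones, 3 of 15 tested pericentral and 1 of 12 tested periportal genes being higher, beside 2.05% of all tested genes. Of 15 pericentral genes, Notum, a secreted Wnt inhibitor, Lhpp, a phosphatase, and Oat were higher, with Notum at 34.8, 40.5 and 43.5 CPM in fasted livers, against 25.5, 23.7 and 19.9 CPM in fed livers (log2 fold change 0.78, SE 0.12, adjusted p = 0.00437) and Lhpp at 103, 131 and 116 CPM in fasted livers, against 80.2, 46.9 and 56.5 CPM in fed livers (log2 fold change 0.93, SE 0.16, adjusted p = 0.00769). Notum has an antisense gene over its locus, and the labels do not say whether counting used strand. In the pericentral list 1 gene was lower without fed control replicate 3. Pck1 was the sole call among 12 periportal genes. Cux2, a transcription factor that marks female liver, was at 5.48, 1.41 and 1.85 CPM in fasted livers, against 0.38, 0.748 and 0.363 CPM in fed livers in these males (log2 fold change 2.54, SE 0.52, adjusted p = 0.0166), and missed the threshold without fed control replicate 1 or 3 (adjusted p up to 0.06). It was the sole call among 14 female-biased genes, and Nudt7 that among 14 male-biased genes, where 0 were lower without fasted control replicate 2 or 3 or fed control replicate 2 and 2 without fed control replicate 3. Lbp, the lipopolysaccharide-binding protein, was the sole call among 18 acute phase genes, at 178, 131 and 142 CPM in fasted livers, against 66, 66.5 and 65.7 CPM in fed livers (log2 fold change 1.18, SE 0.22, adjusted p = 0.0115). Masp1, a protease of the lectin pathway of complement, was the sole call among 26 genes of complement and coagulation (log2 fold change -0.50, adjusted p = 0.0349), and its call ended without fasted control replicate 2 or 3 or fed control replicate 1 or 2 (adjusted p up to 0.129). Of 31 tested proteasome genes, 28 had a positive fold change, beside 7858 of all 15862 tested genes. Psma7, a subunit of the core particle, alone passed (log2 fold change 0.50, adjusted p = 0.0372), though not without fasted control replicate 2 or 3 or fed control replicate 2 or 3 (adjusted p up to 0.125). The single calls of Masp1 and Psma7 in their lists are no more than the share of all tested genes that passed (4.14%).

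Several of the largest changes lay outside these lists. Chrna4, a subunit of neuronal nicotinic acetylcholine receptors (chromosome 2, 181018380 to 181043546), was at 0.494, 0.396 and 0.295 CPM in fasted livers, against 9.92, 24.9 and 14.8 CPM in fed livers, a 41.7-fold fall (log2 fold change -5.38, SE 0.43, adjusted p = 0.000147). Raet1d, a stress ligand of the NKG2D receptor, was at 9.78, 6.56 and 3.71 CPM in fasted livers, against 64.2, 50.6 and 72.5 CPM in fed livers (log2 fold change -3.23, SE 0.52, adjusted p = 0.0115), and it overlaps its similar neighbour Raet1e, so the split of reads is uncertain. Pnpla5, a lipase gene beside Pnpla3 on chromosome 15, had 0 counts in each fasted library, against 0.332, 2.34 and 1.31 CPM in fed livers (adjusted p = 0.0357). On the higher side, Retsat, which saturates retinol, was at 1011, 1709 and 1226 CPM in fasted livers, against 419, 281 and 289 CPM in fed livers, a 3.99-fold rise (SE 0.26 on the log2 scale, adjusted p = 0.00174), with an overlapping gene on the other strand. Nlrp12, a regulator of inflammation, was at 56.8, 57.1 and 51.6 CPM in fasted livers, against 18.6, 13 and 9.89 CPM in fed livers, a 3.99-fold rise (SE 0.32 on the log2 scale, adjusted p = 0.00885). Slc27a1, a fatty acid transport protein of muscle and fat, was at 16.6, 43.7 and 53.5 CPM in fasted livers, against 8.45, 7.8 and 5.22 CPM in fed livers (log2 fold change 2.41, SE 0.44, adjusted p = 0.0166). Slc6a16 and Slc6a21, orphan members of a transporter family that lie next to each other on chromosome 7, were both higher, at 4.99, 6.61 and 6.03 CPM in fasted livers, against 1.71, 1.22 and 0.635 CPM in fed livers for Slc6a16 (adjusted p = 0.0103). Slc6a21 was at 1.83, 1.41 and 1.05 CPM in fasted livers, against 0.332, 0.14 and 0.136 CPM in fed livers (adjusted p = 0.0202). Mroh6, of unknown role, had the largest rise among the genes of the naming rule that passed, 12.7-fold at a low level, with 1.83, 0.791 and 1.73 CPM in fasted livers, against 0.237, 0.0935 and 0 CPM in fed livers (log2 fold change 3.67, SE 0.65, adjusted p = 0.00885). The fed control libraries held 7 counts of Mroh6 in all. In knockout mice Mroh6 was at 0.663, 0.494 and 1.09 CPM in fasted livers, against 0.8355, 0.674 and 0.807 CPM in fed livers (log2 fold change -0.063, adjusted p = 0.976). Its interaction with genotype missed the threshold (edgeR, adjusted p = 0.43). Ckap2, a spindle protein of dividing cells, was 13-fold lower at no more than 2.27 CPM in every library (adjusted p = 0.0348). The call of Raet1d ended without fasted control replicate 2 (adjusted p up to 0.0551). That of Pnpla5 ended without fasted control replicate 1, 2 or 3 or fed control replicate 2 or 3 (adjusted p up to 0.0958). That of Slc27a1 ended without fasted control replicate 2 or 3 or fed control replicate 2 or 3 (adjusted p up to 0.0694). That of Slc6a21 ended without fasted control replicate 1 or 2 or fed control replicate 2 or 3 (adjusted p up to 0.0785). That of Ckap2 ended without fasted control replicate 1, 2 or 3 or fed control replicate 2 or 3 (adjusted p up to 0.121).

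Among 77 tested cytosolic ribosomal protein genes, Rpl29 alone passed with all libraries, and 55 had a positive fold change, beside 7858 of all 15862 tested genes. Without fed control replicate 2, 2 of these genes were higher, and without fed control replicate 3, 2 were lower. Rpl29, a protein of the large subunit (chromosome 9, 106429454 to 106431568, mm10), was at 4.1, 5.99 and 3.29 CPM in fasted livers, against 87.6, 93.5 and 78.9 CPM in fed livers, a 19.6-fold difference with the smallest p of all genes (log2 fold change -4.29, SE 0.25, adjusted p = 1.73e-05). In the other genotype it was at 84.8, 76.4 and 48.2 CPM in fasted knockout livers, against 98.5, 86.2 and 76.3 CPM in fed knockout livers, so the 3 fasted control libraries were the low ones of the 12. The difference between fasted and fed libraries was unlike in control and knockout livers for this gene alone among 15862 (0.0063% called, log2 difference of the responses -3.98, SE 0.32, adjusted p = 0.000643). Of the 657 genes called in controls, 212 had an unadjusted p under 0.05 in this test, as did 1141 of all tested genes. The 657 genes were selected on the same control difference that enters this test, which favours small p among them. These counts therefore do not show how many responses differ by genotype. An effect of the fast on Rpl29 cannot be told apart from another difference of these 3 mice, such as genetic background at this place on chromosome 9. The annotated copy Rpl29-ps2 was at 0.642, 0.622 and 0.464 CPM in fasted and 0.285, 0.607 and 0.544 CPM in fed control livers.

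With Rpl29, 2 more of the 12 largest falls, Acpp and A4gnt, lie on chromosome 9. Acpp, prostatic acid phosphatase (chromosome 9, 104288251 to 104337748), was at 0.148, 0.113 and 0.295 CPM in fasted livers, against 10.2, 18.8 and 8.85 CPM in fed livers of controls (log2 fold change -5.98, SE 0.59, adjusted p = 0.000995). In knockout mice it was at 12, 13.9 and 4.54 CPM in fasted knockout livers, against 24.1, 19.9 and 21.5 CPM in fed knockout livers, and the interaction missed the threshold (log2 difference of the responses -4.89, SE 0.73, adjusted p = 0.148). A4gnt, a glycosyltransferase (chromosome 9, 99612502 to 99622367), had 0 counts in each fasted control library, against 1.95, 5.14 and 9.53 CPM in fed control livers, a level at least 37.4-fold higher in fed livers than the mean detection limit of the fasted libraries. It was at 1.59, 0.225 and 0.0575 CPM in fasted knockout livers, against 0.679, 2.19 and 1.29 CPM in fed knockout livers, and its call ended without fasted control replicate 1, 2 or 3 or fed control replicate 2 (adjusted p up to 0.075). Away from chromosome 9, Tsc22d3 was at 99.1, 104 and 114 CPM in fasted knockout livers, against 67.4, 67 and 58.6 CPM in fed knockout livers (log2 difference of the responses 1.22, SE 0.19, adjusted p = 0.144). Tat had the opposite order in knockout mice, at 1008, 1179 and 1188 CPM in fasted knockout livers, against 2056, 1350 and 1604 CPM in fed knockout livers (log2 difference of the responses 1.45, SE 0.27, adjusted p = 0.201). The interactions of Tsc22d3 and Tat missed the threshold after adjustment over all genes.

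**Figure D5:**
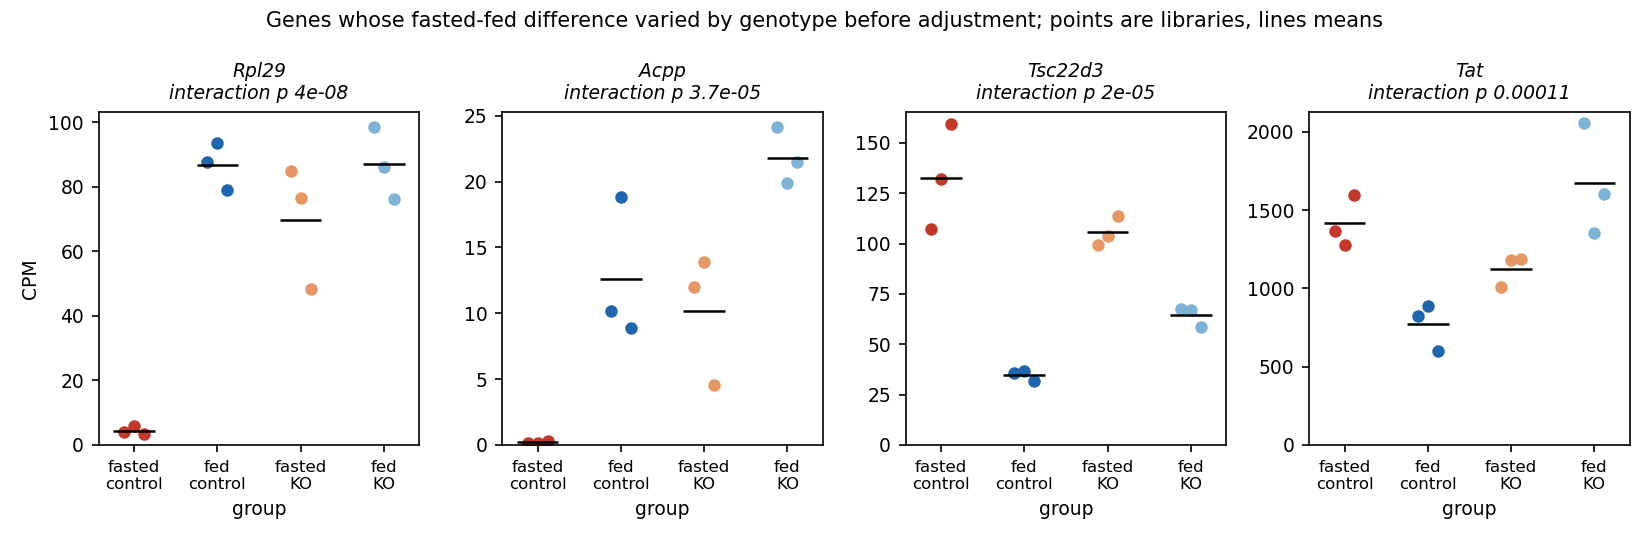
CPM (y axis, from 0) of 4 genes in all 12 libraries, with fasted control, fed control, fasted knockout and fed knockout livers from left to right, points for libraries and a line for the mean of 3. Rpl29 and Acpp are near 0 in the fasted control group alone, while Tsc22d3 has a wider gap between fasted and fed libraries in controls than in knockouts. Tat is ordered the other way in knockouts.

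No gene passed in 8 of the 47 pathway lists or in any of the 12 lists of cell type markers (edgeR). The 8 lists were amino acid transporters, nuclear genes of the respiratory chain, antioxidant genes, iron handling, interferon response, collagens and matrix, cell cycle and immediate early genes. Of their 12, 25, 16, 15, 25, 18, 19 and 14 tested genes, 3, 2, 1, 4, 4, 10, 2 and 5 had an unadjusted p under 0.05 (edgeR). Of all 15862 tested genes, 3080 had one. DESeq2 called 1, 0, 1, 4, 2, 4, 0 and 2 genes of these lists. Without fasted control replicate 1, 1 iron gene was higher, and without fed control replicate 1, 1 immediate early gene was lower. Of 18 collagen and matrix genes, 17 were lower on average (median -0.95), with Col3a1, a fibrillar collagen, at 14.5, 9.89 and 20 CPM in fasted livers, against 23.1, 34.5 and 153 CPM in fed livers, where fed control replicate 3 was the highest. Of the 77 tested marker genes, 13 had an unadjusted p under 0.05 (edgeR), beside 3080 of all 15862 tested genes, and 0 passed. DESeq2 called 1 hepatocyte, 1 B and plasma cell and 1 adipocyte marker, and without fed control replicate 1 edgeR called 1 B and plasma cell marker. The summed level of the markers overlapped between groups for 11 of the 12 cell types, the exception being the adipocyte list given above. Stellate cell markers summed to 179 to 297 TPM in fasted livers, against 254, 256 and 437 TPM in fed control replicates 1, 2 and 3. All 10 stellate markers had a negative fold change (median -0.55), 3 of them with every fasted library below every fed one. Of all 15862 tested genes, 8004 had a negative fold change and 1728 lay below in this way. All 9 sinusoidal endothelial markers also had a negative fold change (median -0.26), 0 of them without overlap. Fed control replicate 3 had the highest fed sum for both lists. Kupffer cell markers summed to 447 to 1181 TPM in fasted and 475 to 1123 TPM in fed livers. The part of these levels in the gene lists was not tested.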

How the data were processed

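Poly(A) RNA of frozen liver was sequenced with a strand-specific kit, per the labels' protocols. The authors deposited raw read counts per gene, and per the submitters' processing notes used DESeq2 1.24.0, featureCounts 1.6.3, Trimmomatic 0.38, bcl2fastq 2.19 and HISAT2 2.1.0 (build mm10). What each tool was used for is not stated there, and no source used here gives the strand setting, multi-mapping rule or gene annotation. The deposited TPM values were used for marker sums, per-length levels and alternatives.

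Counts of all 12 libraries were fitted once in R 4.3.3 with edgeR 4.0.16 (TMM scaling, filterByExpr, robust quasi-likelihood F test), and the 3 fasted and 3 fed control libraries were compared within that fit. P-values were adjusted by Benjamini-Hochberg over all 15862 genes, with a threshold of 0.05. CPM are TMM-scaled counts per 1000000. Replicates are separate animals, per the series' design; no batch, litter or day is given. Detection limits cover counting error only. Each SE was derived from the edgeR test, as the size of the log2 fold change divided by the square root of the F statistic. It therefore includes the spread between libraries as estimated in that fit. The script was tested on simulated data. Alternatives used DESeq2 1.42.0, limma 3.58.1 (voom, and log2(TPM + 1) or log2(TPM + 0.1) with TPM of at least 0.5 in 3 libraries), other scalings and filters, a replicate block and each control library left out.

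Named genes were the 12 largest rises and falls past the threshold (mean of at least 1 CPM in either group, no overlap), the 4 smallest p of each list and a set of usual fasting genes. Members and lists were chosen with earlier results of these data known. Gaa, Fads1, Cfd, Adipoq, Lep, Retn, Ucp1, Rpl29-ps2 and the transporters in the closing section fall outside that rule and were chosen after values were seen. Some results on glucose use and ketone bodies are not reported here.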

Additional observations from a re-analysis of the deposited data

Results flagged for a closer look

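Rpl29 was the gene whose difference between fasted and fed libraries was unlike in control and knockout livers after adjustment over all tested genes (edgeR interaction test, adjusted p = 0.000643). It was at 4.10, 5.99 and 3.29 CPM in fasted control livers, against 87.6, 93.5 and 78.9 CPM in fed control livers. In knockout mice it was at 84.8, 76.4 and 48.2 CPM in fasted livers, against 98.5, 86.2 and 76.3 CPM in fed livers. The fall was seen in 3 of 3 fasted control libraries, and a difference of these 3 mice other than the fast cannot be told apart from it.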

How the results depend on the processing

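The number of genes called for fasting in control mice moved with the method. DESeq2 gave 1170 (543 higher, 627 lower), the 6 control libraries alone gave 311 (123 higher, 188 lower), and limma on log2(TPM + 1) without a filter gave 316 (145 higher, 171 lower). A minimum change of 2-fold left 231 (90 higher, 141 lower). Leaving out 1 control library at a time gave 272 to 541 in all, 117 to 283 higher and 149 to 331 lower; such fits have 1 library fewer and rest on the spread of the other groups. RLE and upper-quartile scaling, limma-voom, limma on TPM with the filter, a floor of 1 CPM and no count filter each stayed within 1.5 times of 657. Of the 657 genes, 652 were also called by DESeq2 and 286 by the fit to the control libraries alone. The genotype test called 1 gene, against 60 with DESeq2, 5 with no filter on low counts and 1 to 2 with 1 control library left out. The causes were not tested.

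Of the 125 genes in the text with values, none that passed changed direction under any of these alternatives. The direction turned for 6 that had not passed. Ppargc1a had a log2 fold change of 0.0051 with upper-quartile factors. With 1 control library left out, the log2 fold change ran from -0.13 to 0.15 for Ppargc1a, -0.33 to 0.057 for G6pc, -0.073 to 0.25 for Igf1, -0.016 to 1.65 for Igfbp1, -0.18 to 0.21 for Lpin1 and -0.10 to 0.10 for Ppara. None of these fits called any of the 6 genes.

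No label pairs the mice by replicate number, and 3 libraries a side are too few for the values to settle it. The correlations of same-numbered fasted and fed control libraries, as deviations from their group means, were -0.0484, 0.11 and 0.184. The highest for fasted control replicate 1 was with fed control replicate 3 (0.021), and for replicate 2 with fed control replicate 1 (0.187). For fasted control replicate 3 it was the same-numbered library. With the replicate number as a block, 496 genes passed (229 higher, 267 lower), of which 415 were among the 657.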

Other observations

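Several membrane transporters outside the naming rule were chosen after their values were seen, and each passed whichever control library was left out (edgeR). Aqp8, a water channel of the canalicular membrane that also passes hydrogen peroxide, was at 30.4, 25.3 and 19.5 CPM in fasted livers, against 152.7, 259 and 264 CPM in fed livers (log2 fold change -3.17, SE 0.38, adjusted p = 0.00235). Carriers of fatty acid use were higher. Of these, Slc22a5 and Slc25a20 are already counted among the 13 higher genes of mitochondrial beta-oxidation. Slc22a5, the plasma membrane carnitine transporter, was at 50.2, 78.5 and 65.5 CPM in fasted livers, against 31.1, 22.2 and 27.4 CPM in fed livers (log2 fold change 1.26, adjusted p = 0.00617). Slc25a20, which carries acylcarnitine into mitochondria, was at 185, 246 and 212 CPM in fasted livers, against 129, 92.5 and 104 CPM in fed livers (log2 fold change 0.98, adjusted p = 0.00618). Slc27a2, a very-long-chain acyl-CoA synthetase, had a log2 fold change of 0.81 (adjusted p = 0.0109). The mitochondrial glutamate carrier Slc25a22 and the bicarbonate cotransporter Slc4a4 were also higher, by 0.88 and 0.90 on the log2 scale (adjusted p = 0.00174 and 0.00971). Slc23a1, a vitamin C transporter, and Slc44a1, a choline transporter, were lower, with log2 fold changes of -1.05 and -0.83 (adjusted p = 0.00769 and 0.00281).

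Calls were more frequent on chromosome 9 than over all genes, at 57 of 889 tested genes (6.41%), against 4.14% in all. Chromosome 6 came next, at 49 of 822 (5.96%), then chromosome 4 at 5.07%, and the lowest autosome was chromosome 1 at 2.24%. In a window from 100000000 to 110000000 of chromosome 9 (mm10), chosen after the values were seen because it holds Rpl29, 18 of 133 tested genes were called (13.5%), of which 4 were higher and 14 lower in fasted livers. No test was made of this share and its cause was not tested.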
